A study of Mus musculus with 23 samples.

Results

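The genes described here are those of respiratory complex I, chosen by name. They are all symbols of the deposited expression table that begin with Nduf, followed by a, b, c, s, v, af or ab and a number. The rule found 45 of the table's 24029 genes. They comprise 7 core subunits, 29 supernumerary subunits, 7 assembly factors, and Ndufa4 with its relative Ndufa4l2. No expression value entered the rule.

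Complex I, NADH:ubiquinone oxidoreductase, is the entry point of electrons into the respiratory chain of the inner mitochondrial membrane. It takes electrons from NADH, hands them through a flavin and a series of iron-sulfur clusters to ubiquinone, and pumps protons across the membrane as it does so. Its catalytic core is built from subunits of both the nuclear and the mitochondrial genome, is surrounded by supernumerary subunits, and is put together by assembly factors that do not stay in the finished enzyme. Fat cells carry this machinery to oxidise fuel, and brown and beige fat cells, which make heat, are known for being rich in mitochondria.

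The cells were C3H10T1/2, a line of mouse mesenchymal stem cells able to form adipocytes. All of them, at day 0 as at day 7, had grown with 8.3 nM BMP7, a bone morphogenetic protein, for 3 days before differentiation. Day 0 cells (pre-adipocytes) had no inducers. Day 7 cells (mature adipocytes) were induced for 2 days with 5 uM dexamethasone (DEX), 0.5 mM IBMX, 0.12 ug/ml insulin, 1 uM Rosi and 1 nM T3, and then kept on insulin, Rosi and T3. At each day there was 1 library made by a standard mRNA procedure (oligo(dT) selection, fragmentation, random priming) and 1 made by TELP, the library method under study, under the label N9. Day 7 had 2 more TELP libraries, labelled N9_ss and T18, and the labels spell out none of these codes. Every group therefore holds 1 library, no value has a replicate error, and nothing says whether the standard and TELP libraries share a culture. A single cell line under a drug cocktail is the whole model.

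Estimated depth lay between 4750000 and 22600000 fragments a library, and the 3 day 7 TELP libraries were the shallowest, at 4750000 to 5750000. The T18 library stood apart, with 79.8% of its RPKM in 10 genes against 7.56% to 32.8% in the others. Of 9 adipocyte markers in the table all 9 were higher at day 7 in both library types. The standard libraries had a summed level of 39.9 RPKM at day 0 and 14703 at day 7, and TELP N9 29.9 and 33075. The adipocyte markers Retn and Cfd were listed at 0 in standard day 0, and Retn also in TELP N9 day 0. The 6 preadipocyte markers summed to 332 and 216 RPKM in the standard libraries and to 358 and 48.1 in TELP N9, with 3 of 6 called lower in the standard pair and 6 of 6 in TELP N9. Of 7 brown or beige fat markers 4 were called higher in both pairs, among them Cox8b (0 to 70.2 RPKM by the standard procedure, 0 to 472 by TELP N9). Ucp1, the uncoupling protein that defines thermogenic fat, was listed at 0 in 4 of 6 libraries and reached 0.882 RPKM in TELP N9 day 7. Ckm (muscle), Ibsp (bone), Acan (cartilage) and Ptprc (leukocytes) were at or near 0 throughout. Other markers of such lists were not, and Acta1, Runx2, Sox9, Col2a1 and Tek were called lower at day 7 in both pairs. Cd68 (leukocytes) was called higher in TELP N9, from 0.423 to 4.70 RPKM.

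Promoter sequence is shown for 6 members, because the letters bound by the respiratory regulators NRF1 and ERR are known from genes of this kind. Ndufs5, Ndufv1 and Ndufab1 had the largest mean change between days, Ndufb4 and Ndufaf4 held the most matches in a single window, and Ndufs4 was the subunit with the smallest change. The bases are the 250 before the transcription start, from RefSeq on build GRCm38.p6, written 5′ to 3′ on the gene's strand. Capitals mark exact matches on either strand to GCGCANGCG (NRF1), AAGGTCA (ERR), CGGAAG (ETS, the family of GABPA), ATGGCGG (YY1) or GGGCGG (SP1).
Ndufs5, upstream bases at chr4:123718187-123718436, minus strand: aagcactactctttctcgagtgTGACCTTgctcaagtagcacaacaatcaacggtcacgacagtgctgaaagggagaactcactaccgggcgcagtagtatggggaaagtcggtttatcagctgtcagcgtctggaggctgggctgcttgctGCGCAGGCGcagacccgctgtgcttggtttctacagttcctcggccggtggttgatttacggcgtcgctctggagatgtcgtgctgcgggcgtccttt
Ndufv1, upstream bases at chr19:4012756-4013005, minus strand: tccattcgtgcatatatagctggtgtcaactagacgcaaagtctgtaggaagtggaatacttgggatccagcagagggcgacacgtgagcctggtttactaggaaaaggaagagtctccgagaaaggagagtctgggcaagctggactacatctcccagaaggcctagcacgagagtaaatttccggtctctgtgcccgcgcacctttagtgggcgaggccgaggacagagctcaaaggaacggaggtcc
Ndufab1, upstream bases at chr7:122101849-122102098, minus strand: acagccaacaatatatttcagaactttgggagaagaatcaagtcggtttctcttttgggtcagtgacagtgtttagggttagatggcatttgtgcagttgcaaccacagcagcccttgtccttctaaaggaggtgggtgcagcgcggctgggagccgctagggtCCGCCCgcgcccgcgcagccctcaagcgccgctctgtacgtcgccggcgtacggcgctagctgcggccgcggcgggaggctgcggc
Ndufb4, upstream bases at chr16:37654369-37654618, minus strand: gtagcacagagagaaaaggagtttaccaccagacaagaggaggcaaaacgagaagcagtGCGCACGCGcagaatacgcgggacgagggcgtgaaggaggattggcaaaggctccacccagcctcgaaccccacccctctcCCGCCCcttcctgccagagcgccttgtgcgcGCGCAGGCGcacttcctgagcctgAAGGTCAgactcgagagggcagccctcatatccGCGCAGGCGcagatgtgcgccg
Ndufaf4, upstream bases at chr4:24897833-24898082, plus strand: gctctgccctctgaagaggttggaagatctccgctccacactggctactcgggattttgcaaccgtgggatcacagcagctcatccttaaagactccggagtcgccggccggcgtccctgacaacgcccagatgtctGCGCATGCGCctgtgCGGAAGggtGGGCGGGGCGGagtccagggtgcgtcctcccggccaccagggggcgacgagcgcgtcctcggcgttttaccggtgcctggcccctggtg
Ndufs4, upstream bases at chr13:114388095-114388344, minus strand: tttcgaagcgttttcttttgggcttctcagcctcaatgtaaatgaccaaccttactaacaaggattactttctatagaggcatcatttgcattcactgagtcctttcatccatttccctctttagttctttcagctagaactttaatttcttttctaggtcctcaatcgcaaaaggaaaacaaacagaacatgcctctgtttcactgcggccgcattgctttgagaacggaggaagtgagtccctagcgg

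Matches were counted in windows of 300 bases, from 250 before to 50 after the start, and 39 of the 45 members had a window. The NRF1 letters were in 10 of 39 members (25.6%), against 9.71% of all 16892 genes with a window and 16.6% of the 8463 among them that passed the expression filter used below. The ERR letters were in 3 of 39 (7.69%, against 4.70% and 3.64%), namely Ndufb2, Ndufb4 and Ndufs5. YY1 letters were in 9 of 39 (23.1%, against 6.03% and 10.2%) and ETS letters in 13 of 39 (33.3%, against 23.6% and 37.2%). SP1 letters were in 20 of 39 (51.3%, against 8446 of the 16892 genes and 71.2%). The NRF1 letters read nearly the same on both strands, so 1 stretch can match at neighbouring positions, as in Ndufaf4, where the 2 SP1 matches also overlap. For ETS and SP1 the members' share lay below that of expressed genes. Ndufs5 and Ndufb4 were the members with both NRF1 and ERR letters, and Ndufv1 and Ndufs4 had no match in the bases printed. These are matches of letters in a window and nothing was measured about binding there. The median day 7 minus day 0 difference, defined below, was 0.98 (standard) and 1.46 (TELP N9) for members with NRF1 letters. For members without them it was 1.17 and 1.48. In both library types members with ETS or YY1 letters also had the lower median, and those with ERR or SP1 letters the higher. A link between letters and change was not tested.

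The main comparison asked how the complex I genes differ between pre-adipocytes and adipocytes. Levels are RPKM, reads scaled to gene length and to the library's read total. Differences are of log2(RPKM + 1), a scale that understates the change of low genes. A gene was called higher or lower when the difference reached 1, among genes averaging 1 RPKM or more in the libraries being compared. Of the 45 members 44 passed that filter.

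Complex I genes were broadly higher in the day 7 cells, subunits more so than assembly factors. In the standard libraries 26 of 44 members were called higher, where 8.22% of all 11312 genes tested were, and 0 were called lower (6.53% of all genes). In TELP N9 34 of 44 were called higher (13.9% of 11360 genes) and 0 lower (29.9%). The members' median difference was 1.14 for standard libraries and 1.56 for TELP N9, while the median of all genes was −0.18 and −0.45. In both library types together 24 of 44 were called higher, against 7.23% of 11474 genes. The members' share of all RPKM went from 0.561% to 1.29% by the standard procedure and from 0.645% to 1.55% by TELP N9. In bulk RNA, more of the cells carrying these transcripts and more RNA per cell cannot be told apart. The part of the marker levels above in this difference was not tested.

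**Figure D1:**
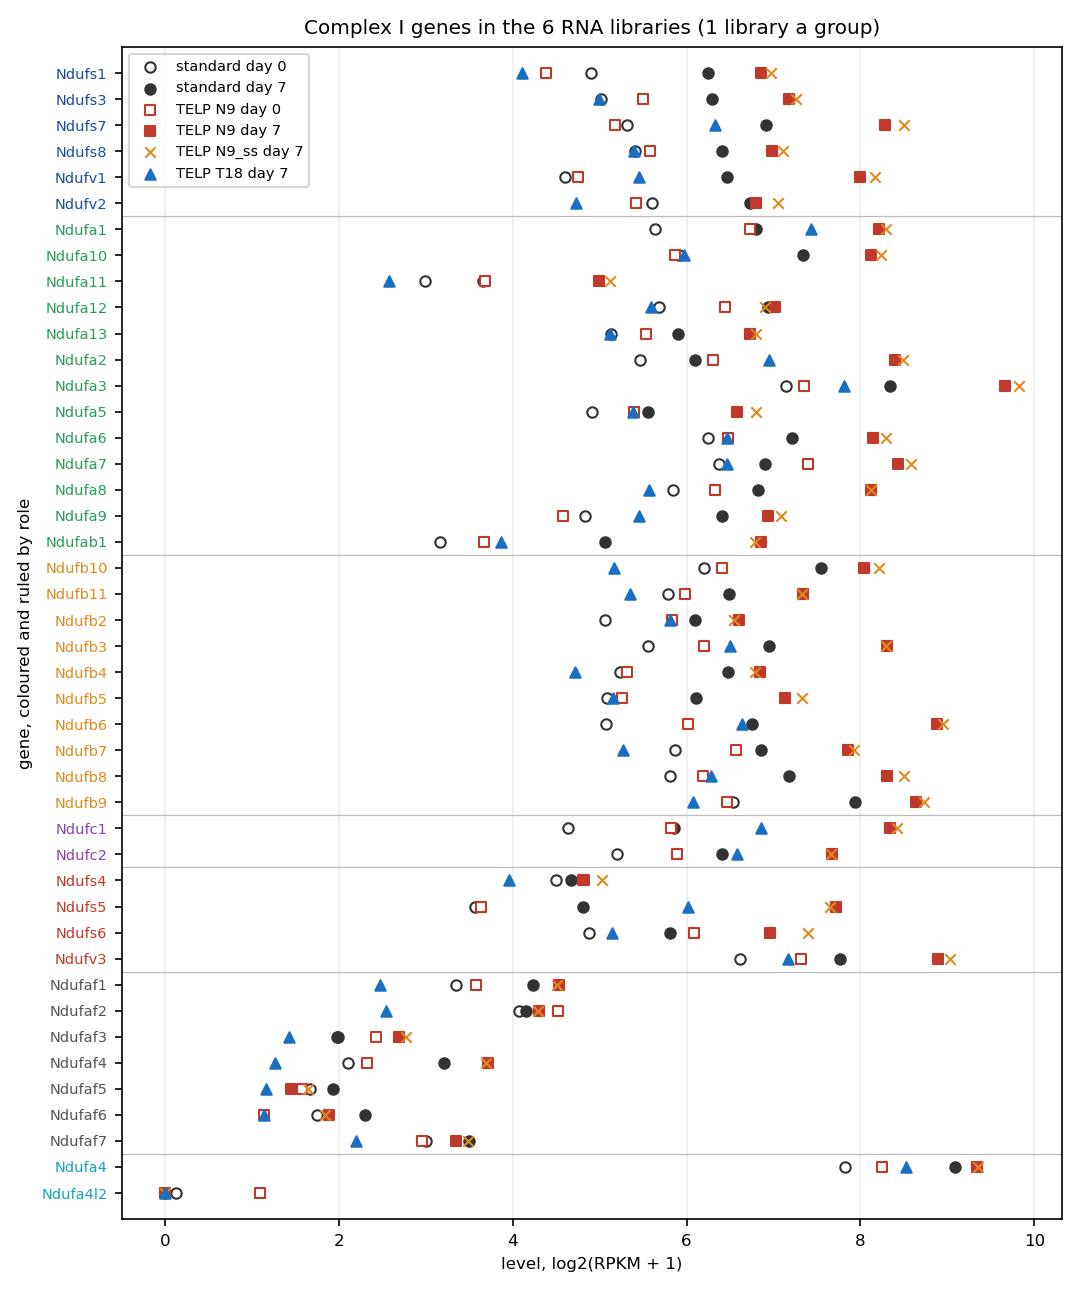
Level of 44 of the 45 genes, as log2(RPKM + 1) on the horizontal axis, in each of the 6 libraries (symbols), with genes grouped and coloured by role. Filled circles and squares (day 7) lie to the right of the open ones (day 0) for most subunits, and assembly factors sit at the low end of the axis.

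The 7 core subunits carry the flavin, the iron-sulfur clusters and the quinone site. All 7 were called higher in TELP N9 and 6 of 7 in the standard libraries, with medians of 1.77 and 1.27. Ndufv1, which binds NADH and the flavin, had 23.4 RPKM in standard day 0 and 87.6 in standard day 7, and 25.9 and 254 in TELP N9. It had 287 in N9_ss and 42.7 in T18. Its level at day 7 was 3.74-fold that of day 0 by the standard procedure and 9.82-fold by TELP N9, the highest ratios of the core. T18 lay below both other day 7 TELP libraries and below standard day 7. Ndufv2, which holds an iron-sulfur cluster beside the flavin, went from 47.8 to 105 RPKM (standard) and from 41.9 to 110.1 (TELP N9), with 132 in N9_ss and 25.6 in T18. At both days its level was close in the 2 library types. Ndufs1, the large subunit with several clusters, had 29.0 (day 0) and 75.1 RPKM (day 7) in the standard libraries, 19.9 and 115 in TELP N9, with 124 in N9_ss and 16.3 in T18. It was the core subunit furthest below its standard level at day 0 in TELP N9 (−0.52).

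Other core subunits form the part that reaches ubiquinone. Ndufs7, which holds the last cluster, had 39.0 (day 0) and 119.5 RPKM (day 7) in the standard libraries, 35.1 and 310.0 in TELP N9, with 362 in N9_ss and 79.1 in T18. It was among the 5 members with the largest mean change over both pairs. Ndufs3, of the same module, had 31.4 and 77.2 RPKM in the standard libraries, 44.2 and 144 in TELP N9, with 153 in N9_ss and 30.8 in T18. For these genes the day 7 level was above the day 0 level in both pairs, while T18 did not exceed the N9 day 0 level of Ndufs3. Ndufs8, a ferredoxin-like subunit, had 41.6 (day 0) and 84.1 RPKM (day 7) in the standard libraries, 46.7 and 125 in TELP N9, with 137 in N9_ss and 41.1 in T18. Its standard level at day 7 was 2.02-fold that of day 0, just under the call on the log2(RPKM + 1) scale. It was the single core subunit not called in both library types, and the standard difference passed the call with a pseudocount of 0.1 RPKM (1.01) and under each of the 3 other scalings. With equal totals the TELP N9 differences of Ndufs8 (0.90) and Ndufv2 (0.87) fell below the call.

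The supernumerary subunits pack around the core and stabilise it. Of 13 Ndufa and Ndufab1 subunits 6 were called higher by the standard procedure and 12 by TELP N9, with medians of 0.99 and 1.67. Ndufab1, the mitochondrial acyl carrier protein that also serves lipoic acid synthesis, had 7.98 (day 0) and 32.4 RPKM (day 7) in the standard libraries, 11.8 and 115 in TELP N9, with 109.8 in N9_ss and 13.5 in T18. It was low among the subunits at day 0 and had the largest standard difference of all members (1.90, 4.07-fold). Ndufa3, a small membrane subunit and the most abundant subunit by RPKM in 5 of 6 libraries (Ndufa7 in the other), had 141 and 323 RPKM in the standard libraries, 163 and 807 in TELP N9, with 907 in N9_ss and 223 in T18. Ndufa2, a subunit of the peripheral arm with a thioredoxin-like fold, had 43.1 (day 0) and 67.6 RPKM (day 7) in the standard libraries, 78.2 and 337 in TELP N9, with 359.7 in N9_ss and 123 in T18. It was called in TELP N9 (2.09) and not in the standard libraries (0.64). The other 10 had standard differences from 0.53 to 1.59 and TELP N9 differences from 0.58 to 2.36. Ndufa12, a peripheral arm subunit related to the assembly factor Ndufaf2, went the other way from Ndufa2, with 1.26 (standard) and 0.58 (TELP N9).

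The Ndufb subunits belong to the membrane arm. Of 10 Ndufb subunits 8 were called higher by the standard procedure and 9 by TELP N9, 7 of them in both, with medians of 1.29 and 1.76. Ndufb6 had 32.8 (day 0) and 107 RPKM (day 7) in the standard libraries, 63.5 and 469.9 in TELP N9, with 494 in N9_ss and 98.5 in T18. Its T18 level was close to its standard day 7 level. Ndufb9, a member of the LYR motif protein family, had 91.8 and 245 RPKM in the standard libraries, 87.2 and 398 in TELP N9, with 425 in N9_ss and 66.1 in T18. Ndufb10, a subunit with disulfide bonds facing the intermembrane space, had 72.5 and 186 RPKM in the standard libraries, 84.2 and 262 in TELP N9, with 295 in N9_ss and 35.0 in T18. Its T18 level was the lowest of its 6 values. Ndufb2 was called by the standard procedure (1.04) and not by TELP N9 (0.77), and the remaining Ndufb genes had standard differences from 0.70 to 1.39.

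Both Ndufc subunits were called higher in both library types. Ndufc1, a single-pass membrane subunit, had 23.8 (day 0) and 57.0 RPKM (day 7) in the standard libraries, 55.7 and 324 in TELP N9, with 341 in N9_ss and 115 in T18. Its TELP N9 level at day 0 nearly equalled its standard level at day 7. Ndufc2 had differences of 1.21 and 1.79.

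Day differences of the 4 supernumerary Ndufs and Ndufv genes spanned 0.17 to 1.24 (standard) and −0.01 to 4.09 (TELP N9). Ndufs5, a subunit on the intermembrane space side, had 10.9 (day 0) and 26.9 RPKM (day 7) in the standard libraries, 11.4 and 209.6 in TELP N9, with 200.3 in N9_ss and 63.6 in T18. The library types were close at day 0 and apart at day 7, where TELP N9 was 18.4-fold above its day 0 level and the standard library 2.48-fold. Ndufs5 therefore had the largest TELP N9 difference of all members (4.09) without standing out in the standard libraries (1.24). Ndufv3, a subunit of the NADH-binding module, had 97.0 (day 0) and 216 RPKM (day 7) in the standard libraries, 158 and 475 in TELP N9, with 523 in N9_ss and 143 in T18. It was called in both pairs. Ndufs4, a peripheral arm subunit whose loss in mice is a model of Leigh syndrome, had 21.7 (day 0) and 24.6 RPKM (day 7) in the standard libraries, 27.3 and 27.0 in TELP N9, with 31.6 in N9_ss and 14.5 in T18. Its differences of 0.17 and −0.01 were the smallest of any subunit as deposited, and the second was 0.51 with median ratios and 0.20 with N9_ss. Ndufs6, a zinc-binding subunit, stood between, at 0.94 and 0.88, uncalled in both pairs as deposited. Its TELP difference passed the call with N9_ss in place of N9, at 167 RPKM against 66.9 in TELP N9 day 0.

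The assembly factors were an order of magnitude less abundant than the subunits and moved less. Their median level was 3.30 RPKM in standard day 0 and 8.26 in standard day 7, against 40.3 and 88.4 for the 36 subunits. The ratio of subunit to assembly factor median was 12.2 (day 0) and 10.7 (day 7) in the standard libraries, and 13.2 and 24.0 in TELP N9. Of 7 factors 1 was called higher in both pairs, and the medians were 0.50 and 0.38, where the 36 subunits had 1.20 and 1.73 with 22 called in both. Ndufaf4, which with Ndufaf3 helps build the quinone module, was the one called. It had 3.30 (day 0) and 8.26 RPKM (day 7) in the standard libraries, 3.99 and 12.1 in TELP N9, with 11.9 in N9_ss and 1.41 in T18. Its partner Ndufaf3 had 2.98 and 2.94 RPKM in the standard libraries, 4.39 and 5.47 in TELP N9, with 5.83 in N9_ss and 1.70 in T18. The 2 partners thus differed at day 7, Ndufaf4 at 3.04-fold and Ndufaf3 at 1.25-fold its day 0 level in TELP N9.

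Ndufaf1, which helps build the membrane arm, had 9.19 (day 0) and 17.8 RPKM (day 7) in the standard libraries, 11.0 and 22.1 in TELP N9, with 21.7 in N9_ss and 4.54 in T18. Its differences of 0.88 and 0.95 lay just under the call and passed it in both pairs after median-of-ratios or quantile scaling. Ndufaf6, an early assembly factor, had 2.38 (day 0) and 3.94 RPKM (day 7) in the standard libraries, 1.21 and 2.69 in TELP N9, with 2.57 in N9_ss and 1.20 in T18. Ndufaf7, a methyltransferase, had 7.01 and 10.3 RPKM in the standard libraries, 6.79 and 9.17 in TELP N9, with 10.2 in N9_ss and 3.60 in T18. Both were higher at day 7 in each pair by less than the call as deposited. In TELP N9, Ndufaf6 passed the call with a pseudocount of 0.1 RPKM (1.10), median ratios (1.10) or quantile normalization (1.31), and Ndufaf7 turned to −0.08 with equal totals. Ndufaf2, which acts late in assembly, had 15.9 (day 0) and 16.9 RPKM (day 7) in the standard libraries, 22.0 and 18.7 in TELP N9, with 18.6 in N9_ss and 4.85 in T18. Ndufaf5, which hydroxylates Ndufs7, had 2.17 and 2.82 RPKM in the standard libraries, 1.99 and 1.72 in TELP N9, with 2.13 in N9_ss and 1.24 in T18. The day 0 and day 7 levels of these factors were close in both pairs. The signs of their differences were opposite between the pairs as deposited, and both were above 0 in each pair after median-of-ratios or quantile scaling.

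Ndufa4 and Ndufa4l2 were kept apart, because Ndufa4, once counted as a complex I subunit, is now assigned to cytochrome c oxidase. Ndufa4 was the most abundant member by RPKM in 4 of 6 libraries, with 225 and 545 in the standard libraries, 303 and 645 in TELP N9, 651 in N9_ss and 368 in T18. It was called in both pairs (1.27 and 1.09). Its TELP N9 difference dropped below the call after scaling to equal totals (0.58) or quantile normalization (0.83). Ndufa4l2, a relative induced by low oxygen, had 0.0916 RPKM in the standard and 1.13 RPKM in the TELP N9 library of day 0 and was listed at 0 in the 4 day 7 libraries. It was the member that did not pass the filter.

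**Figure D2:**
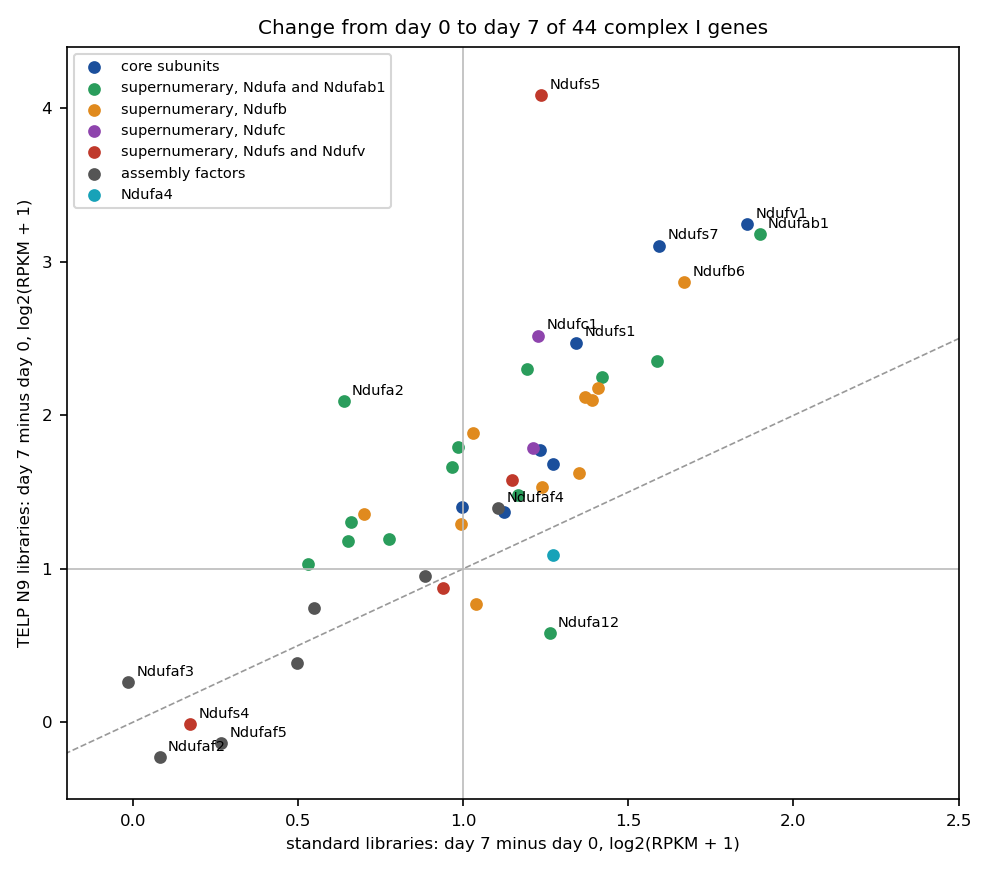
Difference between day 7 and day 0 in log2(RPKM + 1) for the 44 genes that passed the filter, in the standard libraries (horizontal) and the TELP N9 libraries (vertical), coloured by role. Grey lines mark a difference of 1, the dashed line equal differences; 24 genes lie above 1 on both axes, Ndufs5 stands highest at 4.09, and most assembly factors lie near the origin.

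The 2 library types ordered the members alike in large part. Across the 44 members the 2 sets of differences had a Pearson correlation of 0.80 and a Spearman correlation of 0.78, where all kept genes had 0.64 and 0.78. The genes share libraries, so these are descriptions. Of the 44, 10 were called in TELP N9 alone, 2 (Ndufa12 and Ndufb2) in the standard libraries alone and 8 in neither. The 8 were Ndufs4, Ndufs6 and the 6 assembly factors other than Ndufaf4. Near the threshold, 7 members had a standard difference between 0.9 and 1.1.

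A limma fit over the 4 standard and TELP N9 libraries, with library type as a block and Benjamini-Hochberg adjustment over 11474 genes, called 0 of 44 members at an FDR of 0.05, where 0.715% of all genes were called higher. At an unadjusted p under 0.05 it placed 36 of 44 members higher, against 10.7% of all genes. With equal totals only 8 members had such a p, and the share of all genes there was not computed. No other tool was run across libraries. Members' adjusted p from limma ran from 0.0981 (Ndufab1, with a fitted log2 difference of 2.54 and a standard error of 0.44) to 0.896 (Ndufaf5). With 1 residual degree of freedom, the spread in this fit is how far the day difference disagreed between library types, pooled in part over genes. It says nothing of cultures. Ndufs5, with the largest fitted difference (2.66), had a standard error of 0.76 and an adjusted p of 0.155 in limma. After scaling to equal totals limma called 1 member, Ndufs5, at an adjusted p of 0.0381. In that fit the spread was pooled wholly over genes, so each gene had the same standard error of 0.82. How far the differences of Ndufs5 itself disagreed between library types therefore did not enter its p.

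For 17 members the low values of the table allowed whole reads to be recovered, so counting error could be given. Exact 95% intervals of the ratio of day 7 to day 0 cover counting error only, since each group holds 1 library. Duplicate reads were not marked by molecular identifiers, so the intervals are too narrow wherever copies of 1 fragment were counted as separate reads. In the standard libraries the interval lay above 1 for 14 of 17 and above 2 for 7. In TELP N9 it lay above 1 for 14 and above 2 for 12. The 17 are 11 subunits and every assembly factor but Ndufaf7, so they do not mirror the members as a whole. The share of all genes with such intervals was not computed, and these counts describe the 17 alone. Ndufs7 rested on 311 reads in standard day 0 and 940 in standard day 7, a ratio of 3.07 (interval 2.70 to 3.50). In TELP N9 it rested on 442 and 946 reads, a ratio of 8.82 (7.87 to 9.90). The 3 members whose intervals held 1 in both pairs were the assembly factors Ndufaf2, Ndufaf3 and Ndufaf5. Ndufaf3 rested on 37 and 36 standard reads and on 86 and 26 in TELP N9, so that its ratios of 0.988 (0.607 to 1.61) and 1.25 (0.770 to 1.95) were not distinguishable from 1 at this depth. Ndufaf6 had the fewest reads, 30 and 49 (standard) and 24 and 13 (TELP N9).

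**Figure D3:**
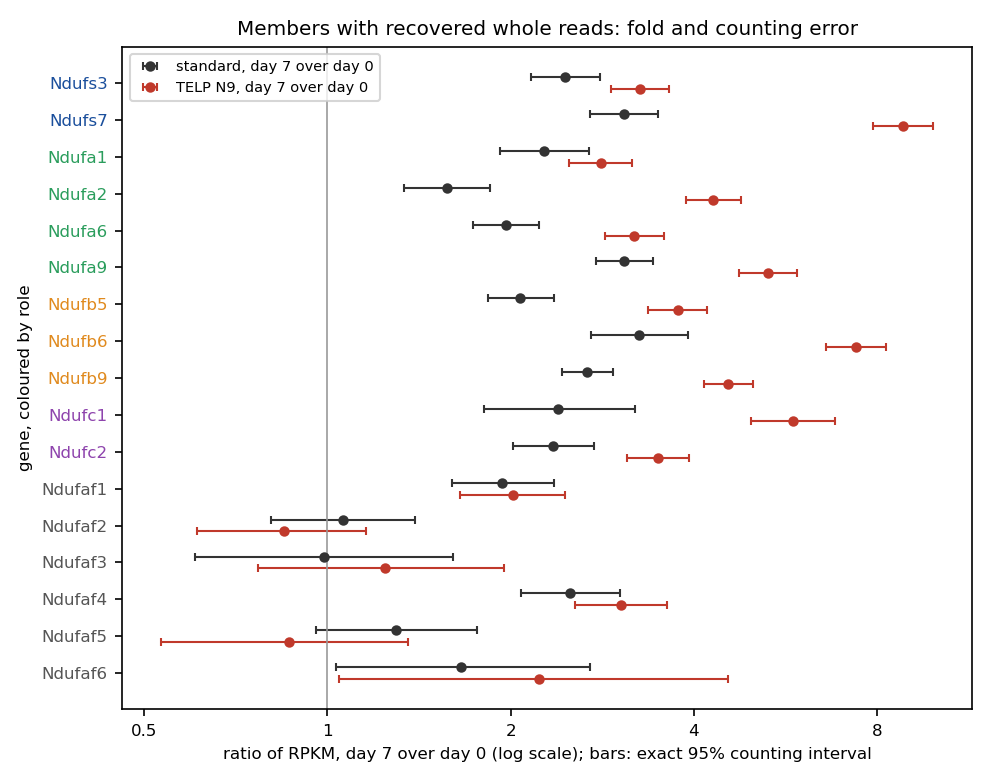
Ratio of day 7 to day 0 RPKM (horizontal, log scale) for the 17 genes with recovered reads in the standard (black) and TELP N9 (red) libraries; bars are exact 95% counting intervals. TELP N9 intervals lie wholly above the standard ones for 10 of 17 genes, and those of Ndufaf2, Ndufaf3 and Ndufaf5 span 1 in both. The share of all genes with such intervals was not computed.

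The design also set TELP against the standard procedure at the same day. At day 0 the members were close, with 4 of 44 higher in TELP N9 by the size rule (2.2% of 11277 genes) and a median difference of 0.35 (0.01 over all genes). These 4 were Ndufs6 (1.21), Ndufc1 (1.19), Ndufa1 (1.09) and Ndufa7 (1.02). At day 7, 19 of 44 were higher in TELP N9 (7.51% of 11044 genes), with a median of 0.87 where all genes had −0.23. The largest were Ndufs5 (2.91), Ndufc1 (2.49), Ndufa2 (2.30) and Ndufb6 (2.13). Core subunits differed less than the supernumerary Ndufa genes, with medians of −0.06 at day 0 and 0.61 at day 7 against 0.49 and 1.30. The assembly factors had 0.21 and 0.14. The counts depend on the scaling, since equal totals left 1 member higher at day 0, and at day 7 5 higher and 2 lower, with a median of 0.12. Among all genes equal totals gave 245 of 12366 higher at day 0, and 340 higher and 5873 lower of 12069 at day 7. Relative to the median of all genes the members' day 7 median was 1.10 as deposited, 1.09 with equal totals, 1.14 with median ratios and 0.61 with quantile normalization. At day 7 the preadipocyte markers were lower and the adipocyte markers higher in TELP N9 than in the standard library, in the sums given above, and their part in this difference was not tested.

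The day 7 minus day 0 difference was larger in TELP N9 than in the standard libraries for 36 of 44 members and smaller for 8. It was larger by 1 or more for 9 members, against 5.99% of 11474 genes, and the median was 0.52 where all genes had −0.27. The 9 were Ndufs5 (2.85), Ndufs7 (1.51), Ndufa2 (1.45), Ndufv1 (1.39), Ndufc1 (1.29), Ndufab1 (1.28), Ndufb6 (1.20), Ndufs1 (1.13) and Ndufa3 (1.11). In the 17 members with whole reads the TELP N9 interval of the ratio lay wholly above the standard one in 10 and wholly below in 0. The share of all genes with intervals apart was not computed. Without replicates the difference of differences has no test.

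Gene length was set beside the library difference for the same 17 members, whose effective length, 211 to 3439 bp, follows from the reads behind each RPKM. Shorter members tended to be higher in TELP N9, with a Pearson correlation between log2 length and the difference of −0.59 at day 0 and −0.71 at day 7. Among the 11 subunits of the 17 it was −0.75 and −0.72. Ndufc1, the shortest at 211 bp, had TELP N9 to standard ratios of 2.34 (95% interval 1.80 to 3.08) at day 0 and 5.69 (4.73 to 6.86) at day 7. Ndufa9, at 1122 bp, had 0.837 (0.738 to 0.949) and 1.44 (1.32 to 1.58). These genes share libraries, and the part of length in the difference was not tested.

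Between the TELP libraries of day 7, N9_ss and N9 were alike for these genes. None of the 44 members reached a difference of 1, as did 0.029% of all genes, and all 44 lay within 0.5. The largest was Ndufs6, with 124 RPKM in N9 and 167 in N9_ss. For the 17 members with whole reads N9_ss held more reads in 16 and the same number in 1. The 2 columns were treated as sharing reads and were not used as replicates, so their likeness is no independent repeat. For Ndufab1, Ndufb4, Ndufs5 and Ndufaf6 the ratio of N9_ss to N9 was the same, 0.9557. This is the ratio that equal reads give at the 2 estimated depths, 5490000 fragments in N9 and 5750000 in N9_ss. Ndufaf6 had 13 reads in each, and for the others reads were not recovered.

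In T18 all 44 members lay below N9, and 38 of 44 were called lower, as were 83.4% of all 9753 genes tested. The members' median of −1.83 was near that of all genes, −1.77. On the log2(RPKM + 1) scale core subunits (−2.19) and Ndufb genes (−2.08) lay below the Ndufa genes with Ndufab1 (−1.68) and the assembly factors (−1.26). That scale understates the change of the low assembly factors. As a plain ratio of RPKM, T18 over N9, their median was 0.311, and that of the Ndufa genes with Ndufab1 was 0.310. Ndufab1 had the largest difference on the log2(RPKM + 1) scale (−2.99) and Ndufaf5 the smallest (−0.28). By plain ratio Ndufaf4 was as low (0.116, against 0.118 for Ndufab1). Ndufaf5 rested on 24 reads in N9 and 15 in T18, and the counting interval of its ratio (0.352 to 1.43) held 1. After median-of-ratios scaling 0 of 44 were lower and 6 higher, with a median of 0.28. Of all 9333 genes tested there, 1288 were lower and 980 higher. After quantile normalization 0 members were lower and 4 higher, with a median of 0.10, where 1326 of 9868 genes were lower and 1268 higher. The members' counts of higher genes were thus near the share of all genes. With T18 in place of N9 for day 7, 3 members were called higher than in TELP N9 day 0, Ndufs5 (2.38), Ndufs7 (1.15) and Ndufc1 (1.03). The share of all genes called higher in that pair was not computed, so the count cannot be set against it. The median difference of all genes in that pair was −2.11. T18 is the library with most of its RPKM in 10 genes, and the part of that in these levels was not tested.

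**Figure D4:**
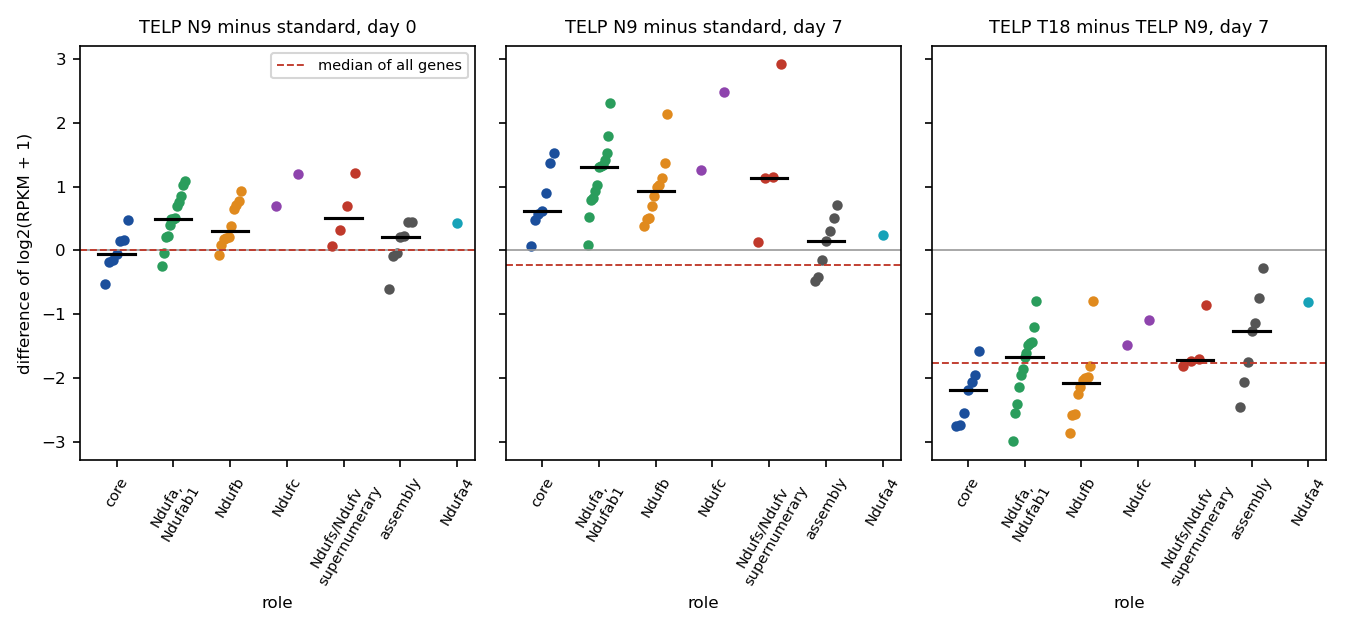
Difference of log2(RPKM + 1) between libraries of the same day for each gene that passed the filter, by role (horizontal), with a black bar at the median of roles of 3 or more genes and a dashed line at the median of all genes. At day 7 all 36 subunits lie above 0 for TELP N9 against standard, and all 44 lie below 0 for T18 against N9.

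Other genes of the pathway were described from lists. Of 12 further complex I assembly genes, 4 were called higher in both pairs, with medians of 0.48 and 1.12. They were Foxred1 (4.82 to 14.6 RPKM by the standard procedure, 3.78 to 32.9 by TELP N9), Tmem70, Ecsit and Aifm1. Lyrm2, a LYR protein, had lower levels at day 7 in both pairs, from 22.7 to 18.9 RPKM and from 29.3 to 13.2. 1810043H04Rik, which RefSeq lists as an older name of the assembly factor Ndufaf8, fell outside the naming rule and was looked up after the values were seen. It had 11.0 (day 0) and 10.9 RPKM (day 7) in the standard libraries, 21.2 and 34.4 in TELP N9. Of the 7 subunits encoded in mitochondrial DNA 0 are in the table used here. Ndufb1, a protein-coding gene in RefSeq whose name meets the rule, is not in it under that name either. The members are thus not every nuclear subunit.

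Among subunits of the other respiratory complexes the share called higher in both pairs was 4 of 4 for complex II, 7 of 9 for complex III, 10 of 10 for complex IV and 5 of 15 for complex V. Their medians were 1.29 and 2.05, 1.77 and 2.94, 1.42 and 2.11, and 0.98 and 1.19, beside 1.20 and 1.73 for the complex I subunits. Of 12 regulators of respiratory genes that passed the filter 3 were called higher in both pairs. Esrra, the receptor that binds the ERR letters, went from 5.31 to 15.7 RPKM (standard) and from 4.60 to 42.0 (TELP N9). Ppargc1b, a coactivator of that receptor, went from 0.181 to 5.51 and from 0.338 to 18.6, and the third was Nrip1, a corepressor. Ppargc1a, the coactivator best known from brown fat, went from 0.787 to 3.13 RPKM (standard) and from 0.939 to 0.783 (TELP N9). Nrf1, the factor that binds the NRF1 letters, had 6.75 (day 0) and 5.37 RPKM (day 7) in the standard libraries, 7.64 and 4.43 in TELP N9.

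Some members cannot be measured cleanly with a gene table. The spans of 9 members overlap another gene of the table in the reference annotation, among them Ndufa1 with Rnf113a1 and Ndufv2 with Ankrd12. Whether counting used strand is not given in the sources used here. RefSeq also lists copies or pseudogenes of Ndufs5, Ndufs6, Ndufab1, Ndufa11, Ndufa12 and Ndufb4 that are not separate entries of the table. Reads of such copies may be counted with those members or left out, and their values, including the TELP N9 level of Ndufs5, are uncertain in that respect.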

How the data were processed

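RNA was measured in 6 libraries of the mouse line C3H10T1/2, 1 per group, grouped by their titles. The series has 23 samples, and the other 17 (chromatin) were not used here. The authors deposited RPKM values for 24029 genes. Bowtie2, TopHat, Cufflinks and the mm9 build are named per the submitters' processing notes; their versions and settings, and the read total behind the RPKM, are not named there.

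Differences were taken of log2(RPKM + 1), over genes averaging 1 RPKM or more in the libraries compared, and called at 1. Day 7 was also tested against day 0 with limma 3.58.1 (R 4.3.3, no trend, library type as a block) over 11474 genes, and the script was tested on simulated data. Since groups hold 1 library, p-values rest on how far the day difference disagreed between library types, pooled in part over genes. With equal totals that disagreement was pooled wholly over genes. That disagreement may be technical. An exact 0 is given as listed at 0. Members and gene lists were chosen with earlier results of these data known.

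Depth was estimated from the steps between low values, with a scale resting on 39 of 203 short genes after deducting 204 bp, and is approximate. Estimated depths were 14400000 fragments in standard day 0, 14100000 in standard day 7, 22600000 in TELP N9 day 0 and 5490000 at day 7, while N9_ss had 5750000 and T18 4750000. Whole reads, to within 0.01 of a read, came out for 3024 of 10645 genes searched (28.4%), too few for a count test. Alternatives were a pseudocount of 0.1, no filter, a filter at 5 RPKM, scaling by median of ratios, equal totals or quantiles, and N9_ss or T18 in place of N9. Genes named with all 6 values were the core subunits, the assembly factors, Ndufa4, Ndufa4l2, Ndufab1, the 5 members with the largest and the 5 with the smallest mean change, the 5 highest in standard day 7, the 5 whose changes differed most between library types, members listed at 0 and members with opposite signs. A gene that this rule names is not reported here. Matching to RefSeq names placed all 45 members. Promoter windows are of build GRCm38.p6, and no coordinate of it was set against mm9.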

Additional observations from a re-analysis of the deposited data

Results flagged for a closer look

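For 4 members the day 7 minus day 0 difference had opposite signs in the 2 library types, and each such difference between the types was not tested, because each group holds 1 library. The TELP N9 minus the standard difference of log2(RPKM + 1) was −0.306 for Ndufaf2, 0.276 for Ndufaf3, −0.402 for Ndufaf5 and −0.187 for Ndufs4. In all 4 the differences themselves were small in both types. After median-of-ratios or quantile scaling the opposite signs were gone in all 4. With N9_ss in place of N9 they were gone for Ndufaf5 (0.06 in TELP) and Ndufs4 (0.20). Reads were recovered for Ndufaf2, Ndufaf3 and Ndufaf5, and their counting intervals held 1 in both types.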

How the results depend on the processing

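No paired analysis was possible because every RNA group has 1 library, so no replicate number pairs samples (the block in limma is library type). Members called higher at day 7 numbered 26 to 32 in the standard libraries under the 6 settings of pseudocount, filter and scaling. They numbered 24 to 39 in TELP N9 and 22 to 32 in both types. Among all genes, the standard libraries had 1086 of 11242 higher with median ratios. Equal totals gave 1192 of 12453 and quantiles 1018 of 11229. In TELP N9 the counts were 2387 of 11367, 1238 of 12263 and 2143 of 11476, in that order. The share of all genes under the other settings, or in both types, was not computed. With T18 in place of N9, members called higher numbered 3 in TELP and 3 in both, with no share of all genes computed. By limma at an FDR of 0.05 there were 0. The limma count was 1 with equal totals, where the spread was pooled wholly over genes, and 0 under the other 5 settings. Members at an unadjusted limma p under 0.05 numbered 28 to 39 in those 5 and 8 with equal totals. The share of all genes at that p was not computed under these settings.

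With median-of-ratios scaling the median day difference was 1.30 (standard) and 2.09 (TELP N9), that of TELP N9 minus standard at day 7 was 1.22, and that of T18 minus N9 turned to 0.28. With equal totals the medians were 1.03 for the TELP N9 day difference, and 0.14 at day 0 and 0.12 at day 7 for TELP N9 minus standard. With quantile normalization the TELP N9 day difference was 1.39, TELP N9 minus standard at day 7 was 0.63, and T18 minus N9 turned to 0.10. A filter at 5 RPKM gave −1.96 for T18 minus N9. N9_ss in place of N9 gave a median of 1.68, and T18 gave −0.23.

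Scaling also moved the median of all genes, which for the TELP N9 day difference was −0.45 as deposited, 0.02 with median ratios, −0.97 with equal totals and −0.05 with quantiles. Relative to it the members' median was 2.01, 2.07, 2.01 and 1.44. Among all genes called in that comparison 31.8% were higher as deposited, and 53.0%, 17.1% and 49.5% under those scalings. For the standard day difference the share was 55.7%, and 66.4% with median ratios. For TELP N9 minus standard it was 75.4% at day 0, and 59.3% with equal totals. At day 7 it was 30.7%, and 53.0%, 5.47% and 48.7%. For T18 minus N9 it was 0.999%, and 43.2% with median ratios and 48.9% with quantiles.

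Of 330 values of named genes under these alternatives 283 kept both their sign and their side of the call. The sign changed in 24, of which 8 had been called. With T18 in place of N9 12 changed sign, namely Ndufaf1 (−1.11), Ndufaf3, Ndufaf4 (−1.05), Ndufaf6 (−0.01), Ndufaf7 (−0.76), Ndufb10 (−1.24), Ndufb9 (−0.39), Ndufs1 (−0.27), Ndufs3 (−0.51), Ndufs8 (−0.18), Ndufv2 (−0.69) and Ndufv3 (−0.15). The other 12 changes were of small differences of Ndufaf2, Ndufaf3, Ndufaf5, Ndufaf7 and Ndufs4 under the 3 scalings or N9_ss. The cause was not tested in any of these cases. Depth limits the assembly factors most, at 5 to 49 reads for Ndufaf6.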
